A study of Mus musculus with 6 samples.

Results

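A set of 10 genes that encode transcription factors of the myeloid and mast cell lineages was followed in mouse leukaemia cells: Gata1, Gata2, Mitf, Cebpa, Cebpb, Cebpd, Spi1, Gfi1, Gfi1b and Runx1. They were chosen by gene name, with earlier results of these data known. Each was represented by its brightest array probe that names 1 gene only. All 10 of 10 were measured, among 19938 genes in all. The cells were pre-B cells of the FvB/N strain transformed with BCR-ABL1, the fusion kinase of Philadelphia chromosome-positive acute lymphoblastic leukaemia, and carried floxed (fl/fl) alleles of Spry1 and Spry2, which encode inhibitors of signalling from receptor tyrosine kinases. Cells were transduced with PMIP-ERT2 (control, 3 arrays) or with PMIP-CRE-ERT2, which encodes a tamoxifen-inducible Cre recombinase (3 arrays). Every array held RNA of puromycin-resistant cells given 0.5 µM 4-hydroxytamoxifen for 2 days, so the controls share the floxed alleles, the drug and the selection. Cre-expressing cells without floxed alleles were not analysed here, and the effects of Cre activity and of Sprouty loss cannot be told apart. The labels are silent on whether replicate arrays stand for separate cultures, and p-values here cover only the spread among the deposited arrays, which could be technical.

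These factors set the choice between blood lineages. GATA2 acts in mast cells and basophils, MITF in mast cells, and GATA1 in red cells, megakaryocytes and mast cells. PU.1 (the product of Spi1) and C/EBP proteins act in monocytes and granulocytes. RUNX1 acts in stem cells and most of their progeny, B cells included. GFI1 and GFI1B are zinc finger repressors that recruit histone demethylase and deacetylase complexes and can silence each other's gene. In B cell precursors PU.1 is kept at a moderate level, while strong C/EBPα or GATA activity can turn such cells towards myeloid or mast fates.

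Values are log2 expression per probe as the authors deposited them, so a difference of 1 is a doubling. Array medians lay between 7.73 and 7.81 and lower quartiles between 6.46 and 6.55. Probe brightness differs between probes, so levels were compared between arrays and not between genes. Spry2, 1 of the targeted genes, read 8.57, 8.37 and 8.33 in control 1, 2 and 3, against 7.29, 7.27 and 7.51 in Cre-ERT2 1, 2 and 3 (limma adjusted p = 0.00162). Spry1 read 9.04, 9.25 and 9.11 against 8.35, 8.41 and 8.11 (limma adjusted p = 0.00462), so on both probes each Cre-ERT2 array lay below each control array. The pre-B identity given by the labels was checked on 14 measured markers. Ebf1 (13.43 to 13.54 over the 6 arrays) and Pax5 (12.41 to 12.58) encode transcription factors that establish and hold the B lineage. Both were above the upper quartile of each array. Of the 14 markers, 0 were called at a limma adjusted p under 0.05. The lowest p-values among them were those of Pou2af1 (0.14 ± 0.057 SE, limma adjusted p = 0.240), a coactivator gene of B cells, and Dntt (0.17 ± 0.075, limma adjusted p = 0.276), which encodes terminal transferase. Across all genes 1.92% were called at a limma adjusted p under 0.05 (159 higher, 223 lower in Cre-ERT2), and higher genes were 41.6% of the calls. Median centring of the arrays brought that share to 31.2%, and a second quantile normalization to 52.5%. With single arrays left out it lay between 46.4% (Cre-ERT2 2) and 74.9% (control 1; 188 higher, 63 lower).

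Of the 10 factor genes, 1 fell (Gfi1) and 0 rose at an adjusted p under 0.05, where 1.12% of all genes were called lower and 0.797% higher. At an unadjusted limma p under 0.05, 4 were higher (Gata2, Runx1, Gfi1b and Gata1) and 1 was lower. Among all 19938 genes, Dntt, with an unadjusted limma p of 0.0499, ranked 3603 by p. Many genes outside the 10 therefore passed this threshold too. Fold changes were positive for 8 of the 10, with a median log2 difference of 0.12 (0.064 without control 3). Among all genes 36.9% were positive, with a median of -0.033 and quartiles of -0.10 and 0.034. The 3 control and the 3 Cre-ERT2 arrays did not overlap for 6 of the 10 factor genes, 5 of them higher in Cre-ERT2, where 24.8% of all genes had groups without overlap (6.59% higher and 18.2% lower). An exact two-sided permutation test of these 6 gave p = 0.1 each, the smallest that 3 arrays against 3 allow. Because the factor genes were chosen with earlier results known, their counts beside the shares of all genes are no independent evidence of an excess.

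**Figure D1:**
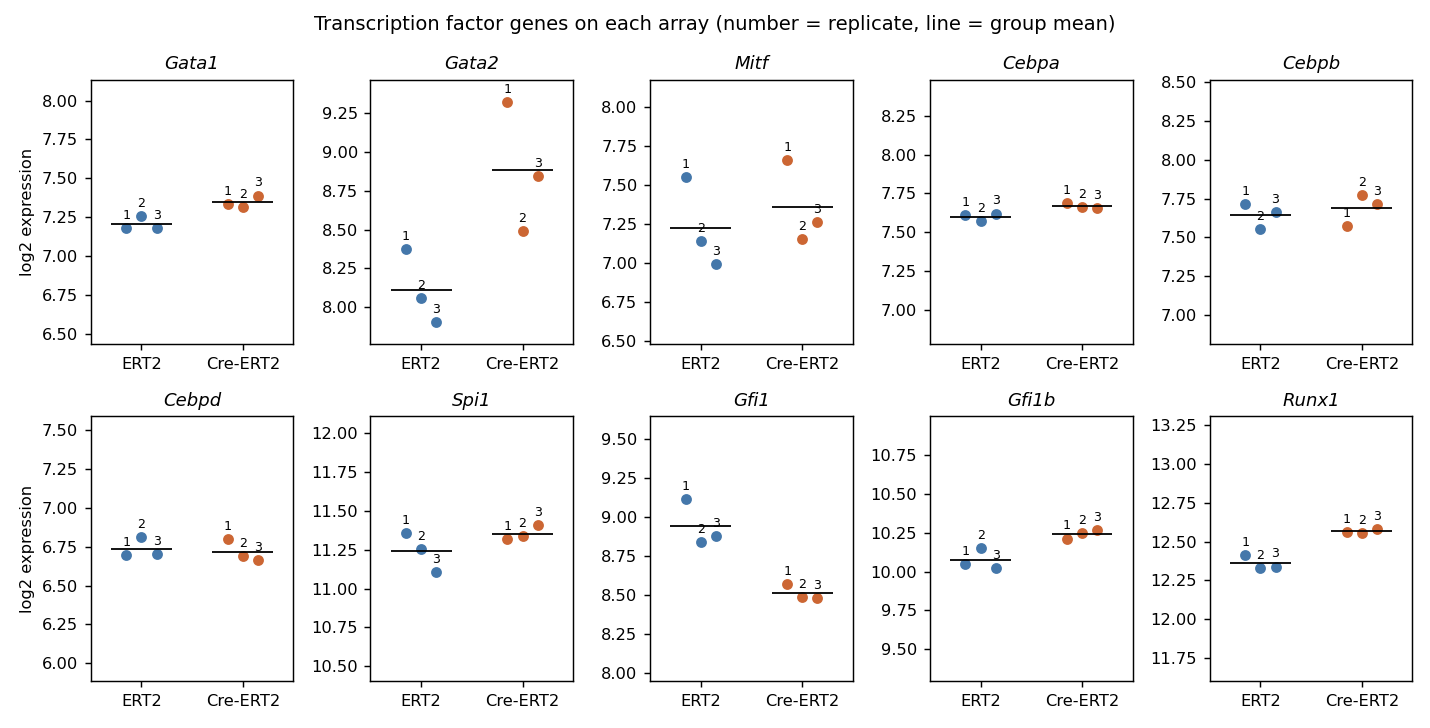
Log2 expression (y axis, the same span in every panel) of each factor gene on the 3 ERT2 control and 3 Cre-ERT2 arrays, with the replicate number above each point and a line at each group mean. Gfi1 is lower on all 3 Cre-ERT2 arrays, Gata2 is higher with a wide spread, and the 3 C/EBP genes lie close together in both groups.

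**Figure D2:**
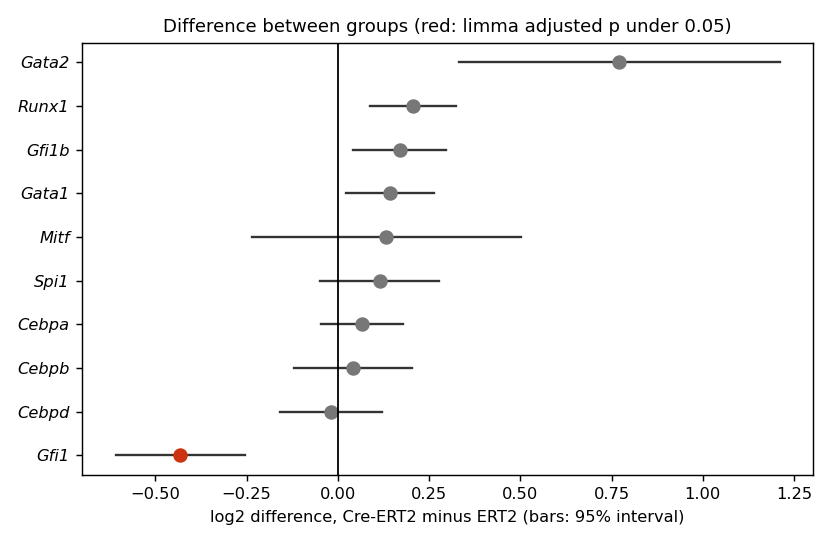
Log2 difference between group means, Cre-ERT2 minus ERT2 (x axis), with its 95% interval from limma for the 10 factor genes. The interval of Gfi1 lies between -0.61 and -0.26, and that of Gata2, from 0.33 to 1.21, is the widest of the 10.

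The repressor genes Gfi1 and Gfi1b had differences of opposite sign, of which that of Gfi1 passed the test. Gfi1, whose product restrains stem and progenitor cell programmes and favours lymphoid and neutrophil over monocyte development, read 9.11, 8.84 and 8.88 in control 1, 2 and 3. In Cre-ERT2 1, 2 and 3 it read 8.57, 8.49 and 8.48. All Cre-ERT2 arrays lay below all control arrays, with a gap of 0.27, and they differed among themselves by only 0.087. Gfi1 therefore fell from 8.94 ± 0.15 to 8.51 ± 0.049 (SD, n = 3 each), a log2 difference of -0.43 ± 0.078 (SE, limma adjusted p = 0.0369). The Cre-ERT2 signal was 74.1% of that in control cells.

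Control 1 was the brightest array for Gfi1, and without it the difference was -0.35 with a limma adjusted p of 0.0401. The call was lost when any other array was left out: control 2 (-0.48, adjusted p = 0.0651), control 3 (-0.46, adjusted p = 0.111), Cre-ERT2 1 (-0.46, adjusted p = 0.0756), Cre-ERT2 2 (-0.42, adjusted p = 0.0765) or Cre-ERT2 3 (-0.42, adjusted p = 0.171). It was also lost with every probe of the table tested (limma adjusted p = 0.119). The same held with the mean of mast cell and basophil markers as a covariate (limma adjusted p = 0.0859). Gfi1 stayed called under 8 of 15 alternatives. Among these 8 is the mean of all probes of a gene, which could not change Gfi1, a gene with 1 probe. The limma adjusted p was 0.0166 after dim genes had been removed, 0.0163 after median centring and 0.00731 under array weights.

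Gfi1b, the relative of Gfi1 that acts in red cell and megakaryocyte precursors and restrains recombinase genes in B cell precursors, read 10.05, 10.15 and 10.03 on the control arrays, against 10.21, 10.25 and 10.27 on the Cre-ERT2 arrays. Each Cre-ERT2 array was above each control array, by at least 0.063. Its log2 difference of 0.17 ± 0.056 (SE) did not pass (limma adjusted p = 0.148). The change of Gfi1 relative to Gfi1b within arrays was -0.60 and the groups did not overlap (exact two-sided permutation p = 0.1; 0.133 after Benjamini-Hochberg adjustment over 4 gene pairs). These 4 pairs were picked after their values had been seen.

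The sequence before the transcription start is shown for these 2 genes and for Gata2, the factor gene with the largest difference. For Runx1 a short stretch after its first start is given. They are taken from RefSeq (GRCm38.p6), matched by symbol, and run 5′ to 3′ on the strand of the gene. Capitals mark a match, on either strand, to a motif of the factors studied here.
Gfi1, the 250 bases before its first start, chr5:107725806-107726055, minus strand, with a C/EBP motif in capitals: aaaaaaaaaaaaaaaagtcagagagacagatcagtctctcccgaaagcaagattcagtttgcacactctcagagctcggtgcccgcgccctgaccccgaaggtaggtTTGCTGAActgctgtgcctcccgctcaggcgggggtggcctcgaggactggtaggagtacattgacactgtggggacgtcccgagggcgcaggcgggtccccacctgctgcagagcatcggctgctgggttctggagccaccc
Gfi1b, the 250 bases before its start, chr2:28621983-28622232, minus strand, with a GATA motif in capitals: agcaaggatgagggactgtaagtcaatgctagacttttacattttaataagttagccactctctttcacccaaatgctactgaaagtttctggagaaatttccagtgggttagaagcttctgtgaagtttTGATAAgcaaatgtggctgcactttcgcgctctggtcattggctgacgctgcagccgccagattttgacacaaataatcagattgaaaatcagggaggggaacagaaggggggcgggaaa
Gata2, the 250 bases before its second start, chr6:88198414-88198663, plus strand, with a GFI1 motif in capitals: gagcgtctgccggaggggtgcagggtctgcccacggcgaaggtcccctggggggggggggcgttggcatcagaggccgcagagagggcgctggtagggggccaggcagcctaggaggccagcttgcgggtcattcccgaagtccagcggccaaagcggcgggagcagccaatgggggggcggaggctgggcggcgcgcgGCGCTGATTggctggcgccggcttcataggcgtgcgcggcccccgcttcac
Runx1, bases 21 to 50 after its first start, chr16:92826025-92826054, minus strand, with RUNX motifs in capitals: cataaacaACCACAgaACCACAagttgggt

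Promoter windows of 300 bases (250 before and 50 after a start) were matched for 8 of the 10 genes, 13 windows in all; Spi1 and Cebpd were not among them. A GATA motif (AGATAA or TGATAA, either strand) was found in 3 of the 13 windows, those of Gfi1b and of Mitf starts 2 and 3, against 18.6% of 32851 mouse windows. A GFI1 motif (AATCNNNGC) lay in 1 of 13, that of Gata2 (10.3% of all windows), and a C/EBP motif (TTGCNNAA) in 3 of 13, those of Gfi1 and of the first and second Mitf starts (10.8%). A RUNX motif (TGTGGT) lay in 2 of 13, with 2 matches in the first Runx1 window and 1 in the first Mitf window (16.8%). A PU.1 motif (GAGGAA) lay in 2 of 13, in Gata1 and Runx1 (28.3%), and a MITF motif (CATGTG or CACGTG) in 1 of 13, in Runx1 (20.4%). Matches of different motifs did not overlap in these windows, and a match describes letters only. The array says nothing of which start was used.

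The GATA factor genes and Mitf belong to the mast cell and red cell side of the group. Gata2, required for mast cell and basophil development and for blood stem cells, read 8.37, 8.06 and 7.90 in control 1, 2 and 3, against 9.32, 8.49 and 8.84 in Cre-ERT2 1, 2 and 3. The groups did not overlap, but Cre-ERT2 2 lay only 0.12 above control 1, and the Cre-ERT2 arrays spanned 0.83. The log2 difference of 0.77 ± 0.19 (SE; 1.71-fold) did not pass (limma adjusted p = 0.0799). It passed under 5 of 15 alternatives. The limma adjusted p was 0.0418 after dim genes had been removed, 0.0334 under a variance model with an intensity trend and 0.0155 under array weights. Without Cre-ERT2 2 the difference was 0.97 and its limma adjusted p was 0.0463. With any other single array left out the limma adjusted p lay between 0.0897 and 0.231 (difference 0.55 without Cre-ERT2 1), and with every probe tested it was 0.192.

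Gata1, the factor of red cells, megakaryocytes and late mast cells, was below the median of every array, as were Mitf, Cebpa and Cebpd. Gata1 read 7.18, 7.26 and 7.18 on the control arrays, against 7.34, 7.32 and 7.39 on the Cre-ERT2 arrays. The lowest Cre-ERT2 array was 0.061 above the highest control array. The log2 difference was 0.14 ± 0.053 (SE, limma adjusted p = 0.199). The change of Gata2 relative to Gata1 was 0.63 with overlapping groups (exact two-sided permutation p = 0.2; 0.2 after Benjamini-Hochberg adjustment over the 4 pairs).

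Mitf, which encodes a basic helix-loop-helix factor needed for mast cells and pigment cells, has 2 probes that name it alone. The brighter read 7.55, 7.14 and 6.99 on the control arrays, against 7.66, 7.15 and 7.26 on the Cre-ERT2 arrays, so that array 1 was the highest in each group and the groups overlapped. The log2 difference was 0.13 ± 0.16 (SE, limma adjusted p = 0.730; 95% interval -0.23 to 0.50). The other probe had a mean of only 3.79 over the 6 arrays, far below the lower quartile of each. Relative to Mitf, Gata2 was 0.64 higher in Cre-ERT2 arrays and the groups did not overlap (exact two-sided permutation p = 0.1; 0.133 adjusted over the 4 pairs).

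Most measured markers of mast cells and basophils were also higher on the Cre-ERT2 arrays. The mean of 27 measured markers was 7.39, 7.09 and 7.23 in control 1, 2 and 3, against 8.21, 7.50 and 7.78 in Cre-ERT2 1, 2 and 3. Of the 27, 23 had a positive and 4 a negative log2 difference (median 0.31). The negative ones were Tpsg1 (-0.15), Siglecf (-0.12), Il9r (-0.085) and Mrgprb1 (-0.049). At a limma adjusted p under 0.05, 4 rose and 0 fell, where 0.797% of all genes were called higher and 1.12% lower. The list was chosen with earlier results known, so these counts are no independent evidence of an excess. Below the lower quartile on all 6 arrays were 4 markers, among them Mrgprb1 and the protease gene Mcpt1. The 4 that rose were the protease gene Mcpt2 (2.45 ± 0.44 SE), the tryptase genes Tpsab1 (0.83 ± 0.12) and Tpsb2 (0.67 ± 0.064), and Fcer1g (1.17 ± 0.24). Their limma adjusted p, in that order, was 0.0369, 0.0180, 0.00295 and 0.0494. Fcer1g encodes a signalling chain of the IgE receptor and of other Fc receptors. On the control arrays Mcpt2 lay below the lower quartile, so the size of its change is uncertain. Tpsab1 (7.44 to 7.52) and Tpsb2 (7.42 to 7.49) lay below the median of each control array. Whether they were detected there was not tested, so the sizes of their changes are uncertain too. The other mast cell genes named here did not pass. The carboxypeptidase gene Cpa3 ranged from 11.27 to 12.61 in control and from 12.50 to 13.47 in Cre-ERT2 arrays (limma adjusted p = 0.148). The IgE receptor genes Fcer1a (1.69 ± 0.44 SE, limma adjusted p = 0.0868) and Ms4a2 (1.40 ± 0.41, limma adjusted p = 0.115), and the receptor gene Kit (0.41 ± 0.17, limma adjusted p = 0.247), did not pass.

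Gata2 followed this mean within the Cre-ERT2 group, where both were highest on array 1, then 3, then 2. Among controls both were highest on array 1, while arrays 2 and 3 were in opposite order. With the marker mean as a covariate in limma, the Gata2 difference was 0.080 ± 0.14 (SE, adjusted p = 0.894) and the Mitf difference turned to -0.37 ± 0.17 (SE, adjusted p = 0.478). The Gfi1 difference was then -0.58 ± 0.12 (SE, adjusted p = 0.0859). The marker mean did not overlap between the groups, so this fit cannot separate the marker mean from the group. Control 1 and Cre-ERT2 2 had the nearest marker means of the 2 groups (7.39 and 7.50). On these arrays Gata2 read 8.37 and 8.49, Gfi1 9.11 and 8.49, and Runx1 12.41 and 12.56. This is a single array of each group, and control 1 was the highest control for each of these genes. In bulk RNA more cells of a type and more RNA per cell cannot be told apart, and the part of mast-like cells in these differences was not tested.

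**Figure D3:**
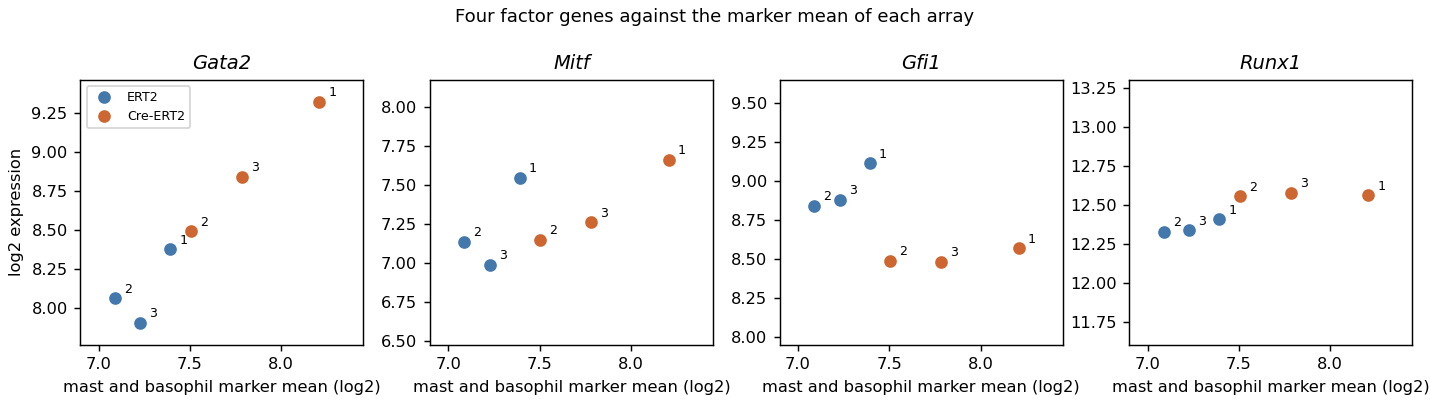
Log2 expression of Gata2, Mitf, Gfi1 and Runx1 (y axes, equal span) against the mean log2 level of 27 mast cell and basophil markers (x axis) on each array, with replicate numbers. Gata2 is highest where the marker mean is highest (Cre-ERT2 1). Gfi1 is highest on control 1, the control with the highest marker mean.

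Genes with the pattern most like Gata2 over the 6 arrays, by Pearson correlation, were the calcium channel gene Itpr3 (r = 0.998), the complement receptor gene C3ar1 (r = 0.997) and the olfactory receptor gene Olfr748 (r = 0.997), and 176 genes had r above 0.95. For Gfi1 they were Dhrs7 (r = 0.998), Lsm5 (r = 0.998) and Pms1 (r = 0.997), with 380 genes above 0.95. These are descriptions over 6 arrays of 2 groups.

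Of Spi1 and the 3 C/EBP genes, which encode factors of monocytes and granulocytes, 0 passed the test. Spi1 read 11.36, 11.25 and 11.11 on the control arrays, against 11.32, 11.33 and 11.41 on the Cre-ERT2 arrays, and the groups overlapped. Its log2 difference was 0.11 ± 0.072 (SE, limma adjusted p = 0.457), and the 95% interval ran from -0.048 to 0.28. The difference was 0.048 without control 3 and 0.17 without control 1. Relative to Spi1, Gata2 was 0.66 higher in Cre-ERT2 arrays without overlap (exact two-sided permutation p = 0.1; 0.133 adjusted over the 4 pairs).

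Cebpa, which encodes the factor that starts granulocyte development, read 7.61, 7.57 and 7.62 on the control arrays, against 7.69, 7.66 and 7.65 on the Cre-ERT2 arrays. The groups were apart by only 0.033, and the log2 difference was 0.066 ± 0.050 (SE, limma adjusted p = 0.544). Cebpb, an effector of inflammatory and emergency myeloid programmes, read 7.71, 7.55 and 7.67 against 7.57, 7.77 and 7.71. The groups overlapped, with a difference of 0.042 ± 0.071 (SE, limma adjusted p = 0.812; 95% interval -0.12 to 0.20). Cebpd, a relative induced in inflammation, read 6.70, 6.81 and 6.70 against 6.80, 6.69 and 6.66, a difference of -0.0195 ± 0.061 (SE, limma adjusted p = 0.910; 95% interval -0.16 to 0.12). The signs of the Cebpb and Cebpd differences turned when single arrays were left out, and an exact two-sided permutation test gave p = 0.5 for each. Cebpa and Cebpd lay below the median of every array, and Cebpb was above it on only 1. The T cell marker gene Cd3e read 7.48 to 7.65. Detection above background was not tested, so small differences here do not show that the C/EBP genes were expressed and unchanged.

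Of 21 neutrophil, monocyte and macrophage markers, 0 passed the test, and the median log2 difference was -0.0098. The granule enzyme gene Mpo ranged from 6.52 to 7.02 over the 6 arrays and the elastase gene Elane, from the list of GFI1 targets, from 7.24 to 7.47. The lysozyme gene Lyz2 read 8.56, 8.91 and 8.42 on the control arrays, against 9.05, 10.12 and 9.90 on the Cre-ERT2 arrays, without overlap (1.07 ± 0.25 SE, limma adjusted p = 0.0651). The integrin gene Itgam, a marker of mature myeloid cells, differed by 0.21 ± 0.068 (SE, limma adjusted p = 0.150). Of 11 red cell and megakaryocyte markers, 0 passed the test (median -0.010). They included the integrin gene Itga2b (0.27 ± 0.073 SE, limma adjusted p = 0.0911) and the red cell membrane gene Rhag (-0.16 ± 0.097, limma adjusted p = 0.424). Another was the platelet factor gene Pf4 (-0.0043 ± 0.094, limma adjusted p = 0.987). Of 8 T cell markers 0 passed the test (median 0.026). The lowest p-values were those of the adaptor gene Lat (0.29 ± 0.074 SE, limma adjusted p = 0.0832) and the coreceptor gene Cd4 (-0.22 ± 0.071, limma adjusted p = 0.143). The receptor chain gene Cd3e differed by 0.046 ± 0.066 (SE, limma adjusted p = 0.779).

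Runx1, the DNA-binding partner of CBFβ and a factor that early B cells need, had small but even differences. It read 12.41, 12.33 and 12.34 on the control arrays, against 12.56, 12.56 and 12.58 on the Cre-ERT2 arrays. Each Cre-ERT2 array lay above each control array, by at least 0.14, and the Cre-ERT2 arrays spanned only 0.023. The log2 difference of 0.21 ± 0.052 (SE; 1.15-fold) missed the threshold (limma adjusted p = 0.0792). It passed under 5 of 15 alternatives in limma. The adjusted p was 0.0341 after dim genes had been removed, 0.0419 after median centring, 0.0269 after repeated quantile normalization, 0.0107 under an intensity trend and 0.0134 under array weights. It did not pass with any single array left out (limma adjusted p from 0.067 to 0.268), with every probe tested (0.142) or with the mean of the mast cell and basophil markers as covariate (0.551).

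Relatives, partners and targets of the 10 factors were read from lists. Of 10 measured family relatives 0 passed the test (median 0.063). The lowest p-values were those of Runx3, a RUNX factor of lymphocytes (0.28 ± 0.088 SE, limma adjusted p = 0.136), and Cebpg, a C/EBP partner without an activation domain (-0.20 ± 0.063, limma adjusted p = 0.140). Of 19 partner and cofactor genes, 1 rose and 0 fell (median 0.016), against 0.797% of all genes higher and 1.12% lower. The gene that rose was Jun, an AP-1 subunit that PU.1 binds (0.60 ± 0.080 SE, limma adjusted p = 0.0136).

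Of 13 measured genes known as targets of repression by GFI1 or GFI1B, 4 rose and 1 fell (median log2 difference 0.019). Of all genes, 0.797% were called higher and 1.12% lower. The genes that rose were Id2, an inhibitor of E proteins (1.37 ± 0.11 SE, limma adjusted p = 0.00162), the immediate early genes Egr1 (0.87 ± 0.054, limma adjusted p = 6.99e-04) and Egr2 (0.48 ± 0.067, limma adjusted p = 0.0160), and the cytokine signalling inhibitor gene Socs3 (0.58 ± 0.11, limma adjusted p = 0.0388). The gene that fell was Rag2, which encodes a subunit of the V(D)J recombinase (-0.68 ± 0.055 SE, limma adjusted p = 0.00162). The list was written with results for these 5 genes already known, so its counts are no independent evidence of a direction.

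**Figure D4:**
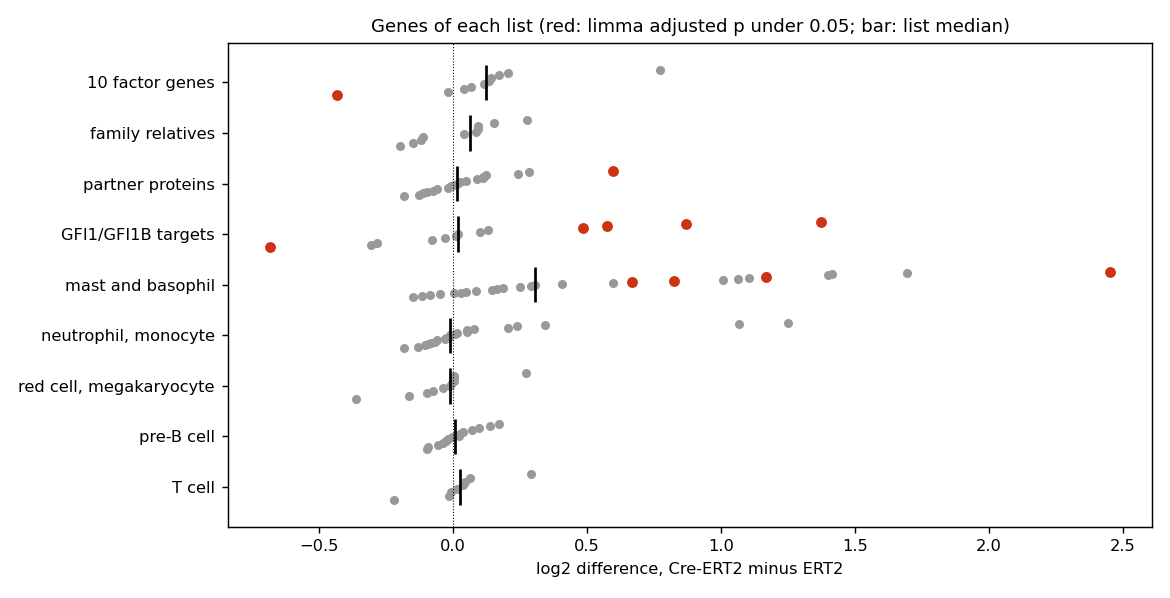
Log2 difference, Cre-ERT2 minus ERT2 (x axis), of every measured gene in each list (rows), red where the limma adjusted p was under 0.05, with a bar at the list median. The mast cell and basophil list reaches furthest to the right, with a median of 0.31, and the pre-B, red cell and T cell lists hold no red point.

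**Figure D5:**
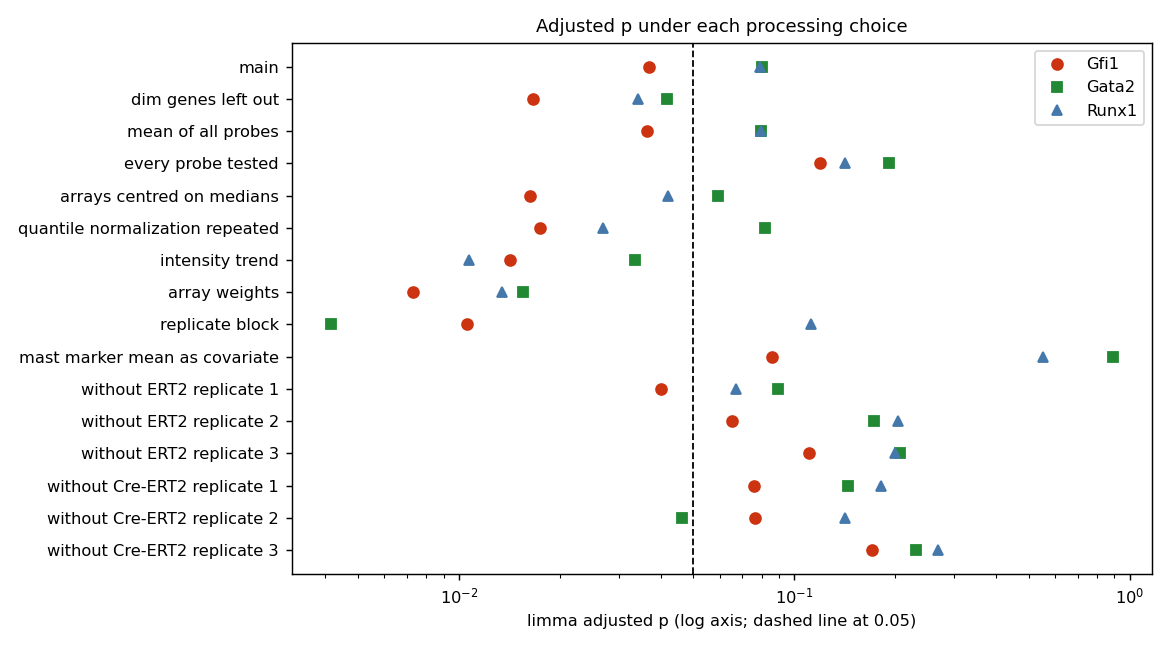
Limma adjusted p (x axis, log scale, dashed line at 0.05) of Gfi1, Gata2 and Runx1 under each processing choice (rows). Gfi1 lies left of the line in the main fit, and it lies right of it when any array other than control 1 is left out.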

How the data were processed

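The deposited table holds log2 expression values for 35556 probes on 6 arrays. Per the submitters' processing notes the tools were RMA and Partek 6.5, with no step assigned to either. How background was corrected, how probes were filtered and which genome build was used is not given in the sources used here. Platform annotation names 1 gene for 21789 probes, several for 1621 and none for 12146. The single-gene probe with the highest mean represented each gene, giving 19938 genes, with no further scaling or filter. Groups were compared with lmFit and eBayes (limma 3.58.1, R 4.3.3), and p-values were adjusted by Benjamini-Hochberg across the 19938 genes. The procedure was tested on simulated data, where it recovered 14% of planted log2 changes of 0.25, 73.6% of those of 0.5 and 96.4% of those of 1. The changes were planted in genes picked at random, and values were drawn independently for each gene, without spread that genes share on an array. These rates therefore need not hold for genes with a wide spread, such as Fcer1a (SE 0.44). The number of arrays limits the precision: the median standard error was 0.0656.

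The factor genes, the 8 other lists and the tests were chosen with earlier results of these data known. Named genes were the 10 factors, up to 6 called genes of each list or else its 2 lowest p-values, defining cell markers, the targeted genes, and the 3 genes most like Gata2 and each called factor. The alternatives are given in the closing section. Deviations of same-numbered arrays from their group means correlated at 0.268, 0.336 and 0.0282. The labels do not say whether same-numbered arrays are pairs, and the main fit did not treat them as pairs.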

Additional observations from a re-analysis of the deposited data

How the results depend on the processing

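The direction of the difference held for Gata1, Gata2, Cebpa, Spi1, Gfi1, Gfi1b and Runx1 under every alternative run. Gata1, Mitf and Cebpd were not tested with dim genes (under the 40th percentile of mean signal) left out. Signs reversed for Cebpb without control 2 (-0.0036) or Cre-ERT2 2 (-0.0019), for Cebpd without control 2 (0.018) or Cre-ERT2 3 (0.0081), and for Mitf without Cre-ERT2 1 (-0.019) or with the mast marker covariate (-0.37); the lowest limma adjusted p of these was 0.478. Leaving out 1 array gave -0.0036 to 0.10 for Cebpb, -0.060 to 0.018 for Cebpd and -0.019 to 0.30 for Mitf. Among the factor genes, 2 were called higher with dim genes left out, an intensity trend or array weights, and 1 with median centring, repeated quantile normalization or the replicate block. Between 0 and 1 were called higher, and between 0 and 1 lower, when single arrays were left out. With every probe tested, or with the covariate, 0 were called lower. Over all genes the numbers higher and lower were 364 and 791 with dim genes left out, 13 and 8 with every probe tested, 314 and 692 with median centring, 369 and 334 after quantile normalization, 366 and 821 with a trend, 763 and 1082 with array weights, and 58 and 34 with the covariate. With the mean of all probes of a gene in place of the brightest, they were 149 and 226. Gfi1, Gata2 and Runx1 have 1 probe each, so that setting could not change their differences. Leaving out 1 array gave 31 to 188 higher and 18 to 111 lower. The cause was not tested. With the replicate number as a block there were 296 higher and 285 lower. Gata2 then had a limma adjusted p of 0.00415 and Runx1 of 0.112. The labels do not say whether same-numbered arrays are pairs.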

Other observations

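Some myeloid genes followed an array order other than that of the mast cell markers. They were picked after their values had been seen, and their differences between groups did not pass the test. The phagocyte oxidase gene Cybb read 11.74, 12.13 and 11.98 in control 1, 2 and 3, against 12.00, 12.33 and 12.24 in Cre-ERT2 1, 2 and 3. The Fc receptor gene Fcgr3 read 7.64, 8.54 and 7.997 against 8.0002, 8.61 and 8.60. Lmo2, which encodes a bridging protein of GATA complexes in blood stem cells, read 8.70, 9.12 and 8.88 against 8.77, 9.51 and 9.16. In both groups these 3 genes were lowest on array 1 and highest on array 2. Lyz2 was also highest on array 2 of both groups, but its lowest control was array 3.

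The protease gene Ctsg, which mast cells share with neutrophil precursors, read 8.52, 7.03 and 7.80 on the control arrays, against 10.35, 7.61 and 9.15 on the Cre-ERT2 arrays. It was highest on array 1 and lowest on array 2 of each group, as was the mast cell and basophil marker mean.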
